A study of Homo sapiens with 72 samples.

Results

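Homoharringtonine at 100 nM was compared with DMSO in U2OS cells by population RNA-seq. Of the 72 wells in the series, the 3 wells labelled with this compound at its lowest dose were set against all 18 wells that received DMSO. U2OS is a human osteosarcoma line, and the cells were grown in 24-well plates and treated for 12 h. Treated and control wells differed by the compound alone, as far as the labels state, and the DMSO wells carry a dose of 0 nM. The other wells received homoharringtonine at 1000 nM or 10000 nM or 1 of 5 other compounds, and of these only the 3 wells at 1000 nM are used here, to place the lowest dose beside the next one. The comparison shows which classes of genes move at the lowest dose of this translation inhibitor in the series. Translation itself was not measured. Nothing in the labels says that wells of a group were separate cultures, so p-values measure the spread between wells.

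Homoharringtonine is a plant alkaloid that binds the peptidyl transferase centre of the ribosome and blocks the first rounds of peptide bond formation. Inhibitors of protein synthesis are known in many cell lines for the accumulation of short-lived mRNAs, above all those of immediate early genes, whose transcripts are normally cleared within minutes and whose induction is limited by proteins that must be made continually. Genes for short-lived repressors, such as the inhibitor of NF-kB, the ZFP36 family of mRNA decay factors and the dual-specificity phosphatases, belong to the same early class.

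The expected counts of genes summed to between 34.9 and 41.6 mil in the 3 treated wells. In DMSO they summed to 0.459 mil in replicate 10 and to between 18.3 and 56.4 mil in the other 17 wells, which are called the deep DMSO wells here. Between 14015 and 14125 genes reached a TPM of 1 in the treated wells, against 14460 to 15153 in the deep DMSO wells. DMSO replicate 10 also held more of some transcripts that were scarce in the other controls. A sum was taken over 23 genes under 1 CPM (counts per mil) in the median of the deep DMSO wells and at 10 CPM or more in the mean of the treated wells. That choice itself makes the sum low in the deep DMSO wells and high in the treated wells. For this choice and sum, CPM were scaled to the library total alone, while the CPM of single genes below are after TMM normalization. The summed level was 8.01 to 12.4 CPM in the deep DMSO wells, 157 CPM in DMSO replicate 10 and 566, 504 and 531 CPM in the treated wells. In DMSO replicate 10 that sum rests on 72 counts, 39 of them from EGR4. The DMSO values below are therefore the lowest, the median and the highest of the 17 deep wells, while the test used all 18. These levels are not corrected for transcript length and are compared only within a gene.

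Homoharringtonine at 100 nM changed early response, ribosome biogenesis and histone genes upward and matrix and lncRNA genes downward, each in part and among many others. Among 18786 genes tested, 2939 (15.6%) rose and 3640 (19.4%) fell past an adjusted p of 0.05 with a log2(Fold Change) above 1 or below -1, by edgeR's quasi-likelihood test with Benjamini-Hochberg adjustment, which gave every adjusted p for a gene below. Of the genes that rose, 898 had a log2(Fold Change) above 2, and of those that fell, 1238 lay below -2. All 3 treated wells lay above all 18 DMSO wells for 2352 of the genes that rose, and below all of them for 1924 of the genes that fell. With the shallow control left out of that count the numbers were 2571 and 2907. The median log2(Fold Change) over all genes tested was -0.03. TMM normalization sets the bulk of genes to no change, so a rise or fall here is relative to that bulk. Scaling to library sizes alone moved the median of all genes by -0.22 and gave 2198 genes raised and 4598 lowered, so that 32.3% of the changed genes were raised instead of 44.7%. Scaling to the ERCC spike-in RNAs moved the median by -1.32, and only 253 genes rose and 291 fell. Those spike-ins made up 0.0158% to 0.51% of the counts in DMSO and 0.0808% to 0.243% in treated wells, a spread between control wells wider than the difference between groups. In bulk libraries of this kind, fewer cells of a type and less RNA per cell cannot be told apart.

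**Figure D1:**
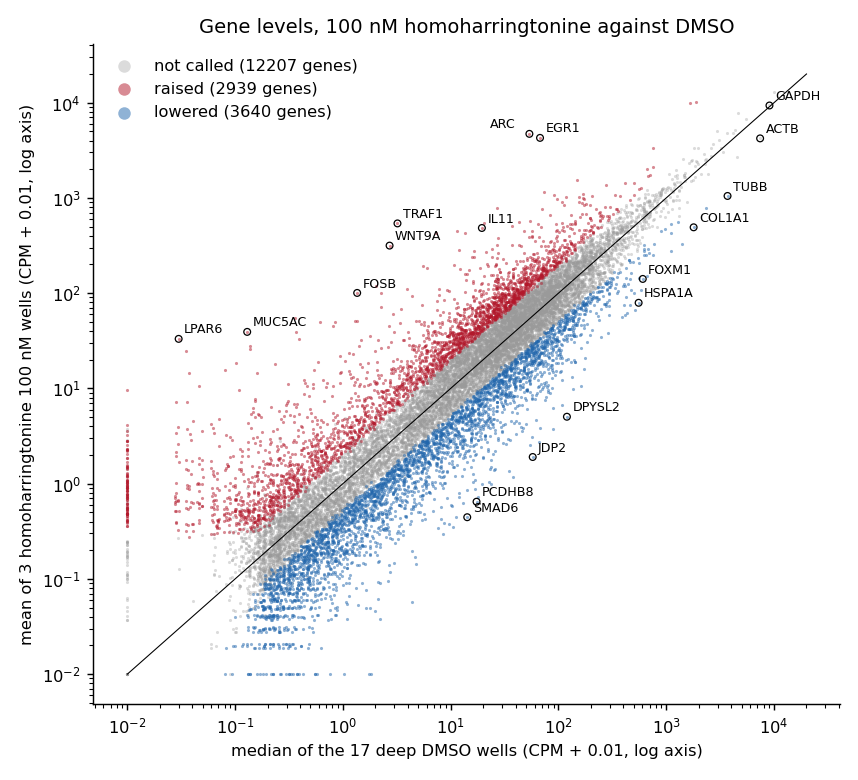
Level of each tested gene, with the median of the 17 deep DMSO wells on the horizontal axis and the mean of the 3 wells with 100 nM homoharringtonine on the vertical axis, both in CPM plus 0.01 on log axes. Red points are the 2939 genes that rose, blue points the 3640 that fell and grey points the rest, the black line marks equal levels, and named genes of the text are ringed.

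The cells carried markers of a mesenchymal line in both groups, with COL1A2 and SP7 as the exceptions. The intermediate filament gene VIM had a median of 1868 TPM in DMSO, the matrix gene SPARC 2137 TPM and the collagen gene COL1A1 452 TPM. COL1A2, which encodes the partner chain of COL1A1, had a median of 0.07 TPM in DMSO, and the osteoblast factor SP7 a median of 0.00. Of 12 markers of other lineages 7 were tested, and 2 of these rose and 1, the epithelial cadherin CDH1, fell. The 2 that rose are epithelial genes as well, so epithelial markers went both ways. KRT20 went from a DMSO median of 0.03 TPM to 0.45 to 0.51 TPM (log2(Fold Change) 3.88 ± 0.37). EPCAM went from 2.38 TPM to 3.69 to 4.15 TPM (log2(Fold Change) 1.08 ± 0.17). The EPCAM call was lost without treated replicate 1, and its sign turned with the spike-in scaling. The hepatocyte marker ALB and the T lymphocyte marker CD3E stayed at or under 0.06 TPM in every DMSO and treated well. Not all of the 12 were so low. AFP had a DMSO median of 3.65 TPM, close to the bone genes RUNX2 (3.81 TPM) and ALPL (3.79 TPM). In treated wells AFP stood at 4.11 to 4.24 TPM and RUNX2 at 0.89 to 1.59 TPM. NKX2-1 had a DMSO median of 0.57 TPM and a highest DMSO value of 7.05 TPM. The 12 markers together summed to 9.76 to 9.88 TPM in treated wells and to 5.55 to 11.1 TPM in DMSO wells. EIF4E, the cap-binding protein that the study lists as the target of this compound, stood at 158, 127 and 96.6 CPM in treated wells against 48.9, 79.3 and 112 CPM in DMSO. The groups overlapped, and its log2(Fold Change) of 0.74 ± 0.20 (SE; adjusted p = 2.8e-03) did not reach the fold threshold. GAPDH had a log2(Fold Change) of 0.11 ± 0.10 (SE; adjusted p = 0.36) and ACTB one of -0.80 ± 0.14 (SE; adjusted p = 1.9e-05), so neither passed both thresholds.

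Immediate early factors were the list with the highest median change. Of the 28 members tested, 23 rose and none fell, with a median log2(Fold Change) of 2.58. EGR1, a zinc finger factor that is among the first genes transcribed after a growth signal, stood at 3863, 4151 and 4789 CPM in treated wells against 42.1, 67.4 and 95.5 CPM in DMSO (log2(Fold Change) 5.71 ± 0.40 SE, adjusted p = 6.4e-12). Every treated well lay above every control, and DMSO replicate 10 lay between the groups at 599 CPM. The stretch of the EGR1 promoter below carries 2 matches to the CArG box, the motif bound by serum response factor, in capitals. It lies at chr5:138465276-138465425 of GRCh38.p14 on the plus strand, from 203 to 54 bases before the start site in RefSeq, and it is shown because CArG boxes are textbook control elements of this gene. A match was found in 1.29% of all 27305 RefSeq promoters, read over 300 bases on both strands. Of the 23 early factors that rose, 17 had a promoter in RefSeq and EGR1 was the only 1 of them with a match, and with so many promoters missing no share of the list is read from this.
EGR1: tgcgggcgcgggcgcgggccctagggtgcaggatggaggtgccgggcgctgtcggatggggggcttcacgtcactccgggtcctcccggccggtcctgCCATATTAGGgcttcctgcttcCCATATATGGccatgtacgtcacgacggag

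ARC, a regulator of synaptic receptor trafficking that is induced with the same kinetics, stood at 4479, 3852 and 5782 CPM against 39.1, 53.7 and 72.9 CPM in DMSO, a 74.6-fold rise (log2(Fold Change) 6.22 ± 0.33 SE, adjusted p = 2.8e-14). FOS, the founding subunit of the AP-1 dimer, stood at 420, 431 and 499 CPM against 7.97, 11.3 and 15.03 CPM. FOSB, its paralog, stood at 94.5, 98.9 and 108 CPM against 0.463, 1.35 and 1.93 CPM. For each of these genes the treated wells lay above all 18 controls, with log2(Fold Change) of 5.15 ± 0.33 for FOS and 6.15 ± 0.32 for FOSB. EGR2 rose by 6.17 ± 0.28 on the log2 scale, and the bZIP factor MAFF by 4.63 ± 0.23. JUN, the main partner of FOS, stood at 444, 512 and 634 CPM against 83.4, 127 and 184 CPM (log2(Fold Change) 2.05 ± 0.16). MYC, the growth-promoting E-box factor, stood at 503, 550 and 667 CPM against 122, 142 and 171 CPM (log2(Fold Change) 1.99 ± 0.09, adjusted p = 3.2e-15). The list was not uniform. EGR3, a close relative of EGR1, stood at 0.296, 0.483 and 0.418 CPM against 0.205, 0.371 and 0.647 CPM, and the groups overlapped (log2(Fold Change) 0.02 ± 0.30, adjusted p = 0.99). SRF, which encodes serum response factor itself, had a log2(Fold Change) of -0.46 ± 0.12 and JUND one of -0.79 ± 0.23, and neither passed the fold threshold. The count of 23 was 22 without DMSO replicate 10, 21 with library sizes and 7 with the spike-in scaling.

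EGR4 needs the shallow control to be read. It stood at 24.1, 26.2 and 32.4 CPM in treated wells and at 0.00, 0.126 and 0.982 CPM in the deep DMSO wells, but at 73.7 CPM in DMSO replicate 10. The treated wells lay above all deep controls and below the shallow one, and the log2(Fold Change) of 6.50 had an SE of 0.84.

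**Figure D2:**
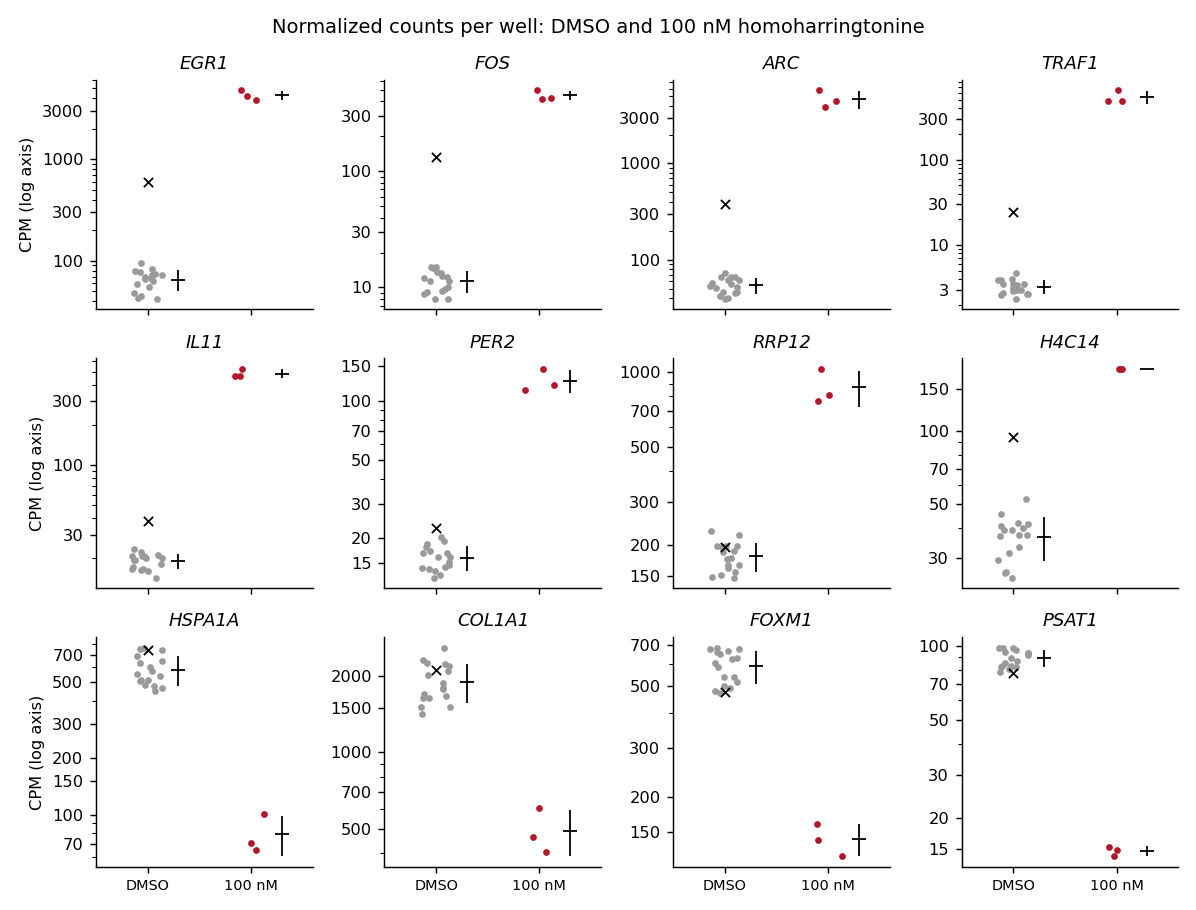
CPM of 12 genes in each well on log axes that differ between panels, with DMSO on the left (grey) and 100 nM homoharringtonine on the right (red). The cross is the shallow DMSO replicate 10, and horizontal ticks with bars are the mean ± SD of the 17 deep DMSO wells or of the 3 treated wells. In each panel the treated wells lie apart from all DMSO wells, above them for EGR1 to H4C14 and below them for HSPA1A to PSAT1.

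Genes that feed back on MAP kinases rose with the early factors. Of 19 tested, 10 rose and 1 fell, with a median log2(Fold Change) of 1.46. DUSP2, a nuclear phosphatase that switches off ERK, stood at 260, 274 and 316 CPM against 8.34, 11.9 and 14.4 CPM (log2(Fold Change) 4.62 ± 0.11, adjusted p = 2.6e-20). DUSP10 and DUSP1, phosphatases that act on JNK and p38, rose by 2.56 ± 0.10 and 2.48 ± 0.09 on the log2 scale, and the receptor tyrosine kinase inhibitors SPRY4 and SPRY2 by 2.26 ± 0.23 and 2.00 ± 0.13. IL17RD, an inhibitor of FGF signalling, was the member that fell, at 6.08, 5.89 and 4.81 CPM against 9.11, 11.02 and 14.7 CPM (log2(Fold Change) -1.04 ± 0.14), a call lost without treated replicate 3 (-0.94).

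Among 20 subunits and feedback inhibitors of NF-kB, 14 rose and none fell, with a median log2(Fold Change) of 1.91. TRAF1, an adaptor of TNF receptors and a long-known NF-kB target, stood at 480, 491 and 649 CPM against 2.35, 3.20 and 4.71 CPM, a 161-fold rise (log2(Fold Change) 7.33 ± 0.18, adjusted p = 3.0e-20). BIRC3, a ubiquitin ligase of the same receptor complex, stood at 125, 105 and 67.98 CPM against 0.875, 2.23 and 5.10 CPM (log2(Fold Change) 5.35 ± 0.32). TNFAIP3, which encodes the deubiquitinase A20, stood at 182, 166 and 202 CPM against 4.92, 6.08 and 7.23 CPM (log2(Fold Change) 4.84 ± 0.20). For each of these the treated wells lay above every control, DMSO replicate 10 included. The subunits that the pathway moves into the nucleus had log2(Fold Change) of 3.90 ± 0.19 for RELB, 2.93 ± 0.11 for NFKB2, 2.80 ± 0.08 for NFKB1, 1.76 ± 0.23 for REL and 1.35 ± 0.11 for RELA. NFKBIA, the inhibitor that retains these subunits in the cytoplasm, stood at 161, 147 and 186 CPM against 28.8, 33.7 and 43.8 CPM (log2(Fold Change) 2.24 ± 0.10). ICAM1, an adhesion molecule induced by NF-kB in many cells, rose from a median of 0.325 CPM to no more than 0.897 CPM in a treated well (log2(Fold Change) 1.09 ± 0.24).

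Of the 14 NF-kB genes that rose, 12 had a promoter in RefSeq and 6 of these held a match to the NF-kB consensus on either strand. Such a match was held by 10.8% of all RefSeq promoters of this length. Among the 11680 tested protein-coding genes with a promoter, 13.1% held it. The NF-kB genes were listed as members of the pathway, so the count is a description. The stretches below are from 3 of those genes in GRCh38.p14, with matches in capitals, and they are shown because the feedback arm of the pathway is read through such motifs. They lie at chr11:102317234-102317378 on the plus strand for BIRC3, at chr14:35404801-35404950 on the minus strand for NFKBIA and at chr6:137867084-137867233 on the plus strand for TNFAIP3. A match is a sequence of letters, and binding was not measured.
BIRC3: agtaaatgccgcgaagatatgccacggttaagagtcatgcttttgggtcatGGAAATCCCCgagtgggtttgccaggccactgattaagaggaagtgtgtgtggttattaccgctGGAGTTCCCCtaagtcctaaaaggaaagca
NFKBIA: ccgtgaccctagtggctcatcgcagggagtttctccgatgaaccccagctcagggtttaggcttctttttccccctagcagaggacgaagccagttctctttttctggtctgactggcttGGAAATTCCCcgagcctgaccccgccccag
TNFAIP3: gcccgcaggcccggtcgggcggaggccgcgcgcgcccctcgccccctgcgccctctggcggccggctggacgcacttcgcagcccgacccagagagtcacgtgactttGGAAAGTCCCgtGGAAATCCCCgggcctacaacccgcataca

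Secreted factors rose in the same libraries. Of 17 cytokines tested, 13 rose and 2 fell (median log2(Fold Change) 2.40). IL11, a cytokine of the IL-6 family, stood at 464, 461 and 525 CPM against 14.3, 19.5 and 23.3 CPM (log2(Fold Change) 4.65 ± 0.11, adjusted p = 1.2e-20). The neutrophil attractant CXCL8 stood at 72.4, 39.5 and 36.9 CPM against 0.385, 0.826 and 1.51 CPM (log2(Fold Change) 5.77 ± 0.24). INHBA, the activin A subunit, rose by 3.80 ± 0.11 on the log2 scale and LIF, the leukemia inhibitory factor, by 3.27 ± 0.13. Several members were scarce even after the rise, and TNF reached only 0.995, 0.708 and 1.17 CPM from a DMSO median of 0.00 (log2(Fold Change) 5.84 ± 0.45). BMP4, a bone morphogenetic protein, went the other way, with 8.15, 8.23 and 8.91 CPM against 52.2, 61.4 and 75.5 CPM (log2(Fold Change) -2.90 ± 0.13), and CCL2, a monocyte attractant, fell by 1.33 ± 0.27 on the log2 scale. Its relative BMP2 rose by 2.40 ± 0.09.

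Genes for ligands and receptors of the EGF family moved in both directions. Of 9 tested, 6 rose, 2 fell and 1 did not pass, and 7 had a log2(Fold Change) above 0. The ligand genes AREG, EREG and HBEGF rose by 4.27 ± 0.18, 4.18 ± 0.16 and 3.09 ± 0.12 on the log2 scale. HBEGF stood at 325, 313 and 333 CPM in treated wells against 28.1, 37.2 and 47.7 CPM in DMSO. The receptor genes ERBB2 and ERBB3 were those that fell, and ERBB2 stood at 35.7, 39.7 and 52.3 CPM against 121, 141 and 195 CPM (log2(Fold Change) -1.80 ± 0.17, adjusted p = 1.2e-09). Neither group overlapped the other for these genes.

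Of 18 TGF-beta and BMP response genes 5 (27.8%) rose and 4 (22.2%) fell, against 15.6% and 19.4% of all genes. These counts are too small to read as a result about the list. SNAI1 and SNAI2, zinc finger repressors of epithelial genes, rose by 3.57 ± 0.13 and 2.71 ± 0.12 on the log2 scale. SMAD6, the inhibitory SMAD that BMP signals induce, had the most negative change among protein-coding genes with at least 10 CPM in DMSO. It stood at 0.323, 0.322 and 0.657 CPM against 9.77, 14.2 and 21.1 CPM, which is 33.3-fold lower (log2(Fold Change) -5.06 ± 0.32, adjusted p = 9.3e-13). ID1, another BMP target, fell by 1.23 ± 0.18 on the log2 scale, and TGFB2, a TGF-beta ligand, by 2.70 ± 0.28.

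**Figure D3:**
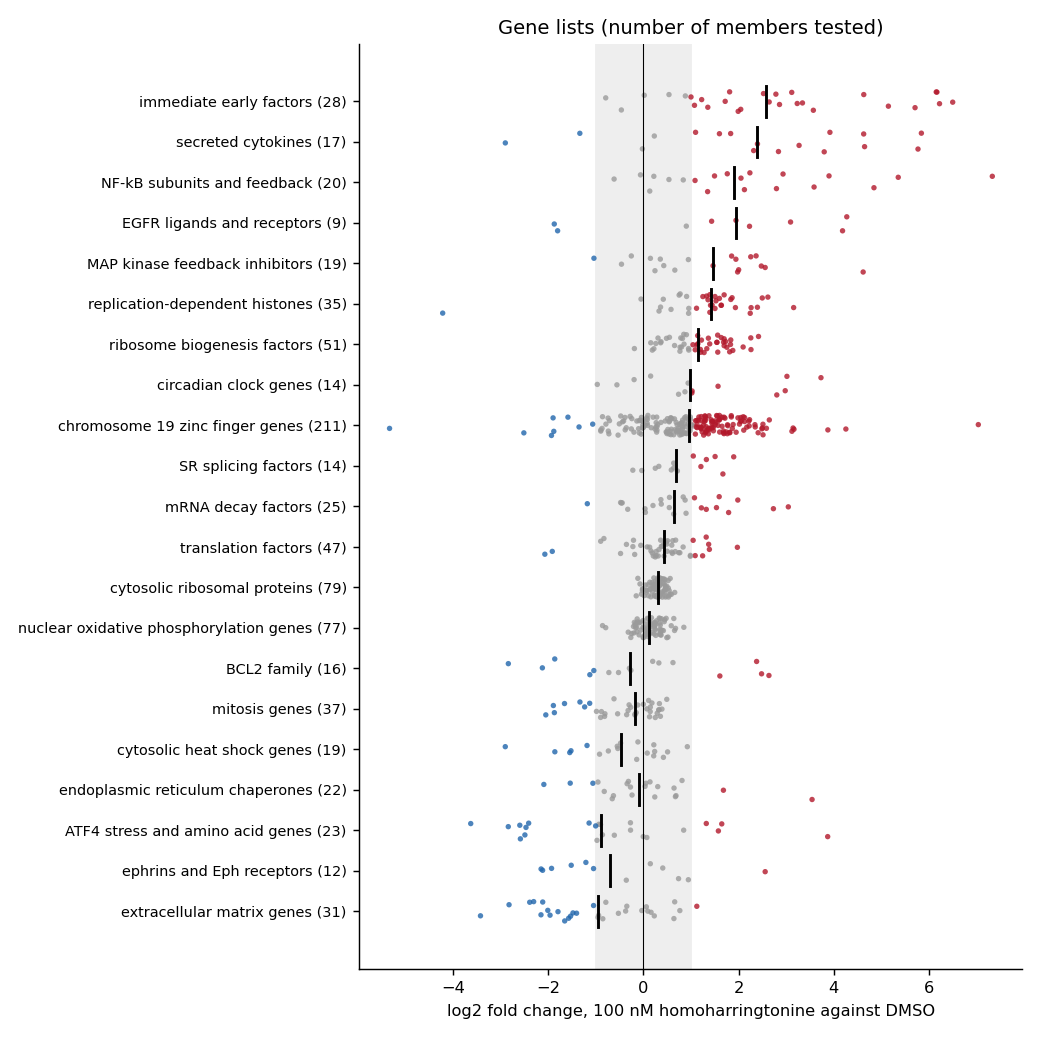
Log2(Fold Change) of each tested member (points) of 21 gene lists, with the number tested in brackets. Red points passed both thresholds upward, blue points downward and grey points did not pass, the black tick is the median of the list, and the grey band spans -1 to 1. Early factors and secreted cytokines lie farthest to the right, ribosomal protein genes stay inside the band, and extracellular matrix genes lie farthest to the left by their median of -0.95.

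The machinery that builds ribosomes and the ribosome itself behaved differently at the mRNA level. Of 51 ribosome biogenesis factors, 30 rose and none fell, with a median log2(Fold Change) of 1.15, and 22 rose when scaled to library sizes alone, but none did under the spike-in scaling. RRP12, needed for export of both ribosomal subunits, stood at 764, 809 and 1033 CPM against 148, 178 and 229 CPM (log2(Fold Change) 2.26 ± 0.10, adjusted p = 1.5e-15). NOC3L, a factor of the large subunit, rose by 2.42 ± 0.18 on the log2 scale, and RIOK2, a kinase of the small subunit precursor, by 2.26 ± 0.21. The helicase DDX21 and the box C/D snoRNP protein NOP56 rose by 1.54 ± 0.15 and 1.37 ± 0.11. For cytosolic ribosomal proteins, by contrast, 0 of 79 passed in either direction by edgeR, and their values ran from -0.15 to 0.66 with a median of 0.31. At the adjusted p alone, 31 of these 79 differed. Their summed level was 202800 to 205700 TPM in treated wells and had a median of 203600 TPM in DMSO. Mitochondrial ribosomal proteins gave 7 raised and 2 lowered of 78.

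Among 47 translation factors 7 rose and 2 fell, close to the share of all genes for the rise and below it for the fall. EIF4A2, a helicase of the cap-binding complex, stood at 505, 459 and 357 CPM against 70.9, 102 and 179 CPM (log2(Fold Change) 1.98 ± 0.20), and EIF1, which guards start codon choice, at 1829, 1739 and 1679 CPM against 575, 700 and 805 CPM (log2(Fold Change) 1.32 ± 0.08). Both groups were apart for each of them. The members that fell restrain translation: EIF4EBP1, the repressor of EIF4E, fell by 1.91 ± 0.19 on the log2 scale, and EEF2K, the kinase that inhibits elongation, by 2.07 ± 0.11. None of 20 cytosolic aminoacyl-tRNA synthetases passed both thresholds by edgeR, while 11 differed at the adjusted p alone. The polyamine enzyme genes SMOX, SAT1 and ODC1 rose, 3 of 11 (27.3%) in their list against 15.6% of all genes. ODC1 stood at 2286, 2125 and 1846 CPM against 493, 757 and 1014 CPM (log2(Fold Change) 1.51 ± 0.17). With the spike-in scaling the values of EIF5, EIF3J and ODC1, which all rose here, were below 0.

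Lists of SR splicing factors, nonsense-mediated decay factors and small nucleolar RNA host genes rose in part. Some of their RNAs are known substrates of translation-coupled decay. Among all genes 15.6% rose and 19.4% fell. In the SR family of splicing factors, whose genes make poison-exon isoforms, 6 of 14 (42.9%) rose and none fell. TRA2A stood at 191, 186 and 178 CPM against 42.7, 49.5 and 56.3 CPM (log2(Fold Change) 1.90 ± 0.08, adjusted p = 2.3e-16), followed by SRSF10 at 1.67 ± 0.12 and TRA2B at 1.51 ± 0.06. Among 17 factors of nonsense-mediated decay, 5 (29.4%) rose and none fell, led by SMG9 and UPF3B. That count was 4 without DMSO replicate 10 and 3 with library sizes or with the replicate block, too small to read as a result about the list. Of 24 noncoding host genes of small nucleolar RNAs, 9 (37.5%) rose and 2 (8.33%) fell. SNHG8 rose by 2.39 ± 0.12 on the log2 scale and ZFAS1 by 1.88 ± 0.11. GAS5, the host gene best known for decay that depends on translation, stood at 121, 99.5 and 84.3 CPM against 25.96, 42.0 and 62.1 CPM (log2(Fold Change) 1.28 ± 0.20), while DANCR fell by 1.93 ± 0.12. Isoforms and decay were not measured in gene-level counts, and the cause of these changes was not tested.

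Decay factors of mRNA gave 9 (36.0%) raised and 1 (4.0%) lowered of 25, against 15.6% and 19.4% of all genes. ZFP36, which binds AU-rich elements and recruits the deadenylase, stood at 81.7, 78.2 and 103 CPM against 6.84, 10.7 and 12.9 CPM (log2(Fold Change) 3.05 ± 0.12). Its relative ZFP36L1 stood at 932, 964 and 1153 CPM against 121, 155 and 196 CPM (log2(Fold Change) 2.73 ± 0.10), and the endonuclease gene ZC3H12A rose by 1.59 ± 0.16. Treated and control wells did not overlap for these genes.

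ATF4 and the genes it is known to drive did not move together. ATF4 itself stood at 1561, 1591 and 1901 CPM against 507, 674 and 781 CPM (log2(Fold Change) 1.32 ± 0.10, adjusted p = 4.5e-11). PPP1R15A, the regulatory subunit of the eIF2alpha phosphatase and itself short-lived, stood at 1077, 995 and 1364 CPM against 53.9, 73.1 and 90.4 CPM (log2(Fold Change) 3.87 ± 0.21), and the stress factor DDIT3 rose by 1.65 ± 0.13. Yet of the 23 members of the list 9 fell and 4 rose, with a median of -0.90. PSAT1, an enzyme of serine synthesis, stood at 15.4, 14.9 and 14.1 CPM against 77.9, 89.2 and 98.2 CPM (log2(Fold Change) -2.58 ± 0.10, adjusted p = 1.3e-16). The glutathione-degrading enzyme CHAC1, the mTORC1 inhibitor DDIT4 and the cystine transporter SLC7A11 fell by 2.59 ± 0.20, 2.84 ± 0.15 and 2.49 ± 0.25 on the log2 scale. In 10 members neither call was made.

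In both chaperone lists a minority of members was called, while the summed levels and single members fell. The median log2(Fold Change) was -0.48 for cytosolic heat shock genes and -0.10 for the list of the endoplasmic reticulum. In the latter 11 of 22 members lay above 0, so its lower sum does not describe the list as a whole. Cytosolic heat shock genes summed to 5760 to 6200 TPM in treated wells and to 7854 to 10170 TPM in DMSO wells. The list for the endoplasmic reticulum summed to 2657 to 2803 TPM in treated wells and to 3645 to 4433 TPM in DMSO wells. Of 19 cytosolic heat shock genes, 5 (26.3%) fell and none rose, against 19.4% and 15.6% of all genes, and 14 did not pass. HSPA1A, the stress-inducible HSP70, stood at 65.5, 71.3 and 101 CPM against 452, 554 and 764 CPM (log2(Fold Change) -2.90 ± 0.20, adjusted p = 3.6e-12), and its near-identical copy HSPA1B fell by 1.86 ± 0.15, with reads that the counting could split between them. HSPA8, the constitutive HSP70, stood at 834, 826 and 703 CPM against 1473, 2351 and 3174 CPM (log2(Fold Change) -1.52 ± 0.25). In the list for the endoplasmic reticulum, 3 of 22 (13.6%) fell and 2 (9.09%) rose. HSPA5, the lumenal HSP70 also called BiP, fell by 1.06 ± 0.16 (-0.98 without treated replicate 3, which is past the fold threshold no longer), and PDIA4, a disulfide isomerase, by 2.09 ± 0.13. ERN1, the sensor IRE1, stood apart in the other direction, at 309, 306 and 338 CPM against 24.9, 26.9 and 30.1 CPM (log2(Fold Change) 3.54 ± 0.07, adjusted p = 2.6e-21).

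GADD45A, a growth arrest gene, stood at 790, 736 and 849 CPM against 22.3, 26.95 and 37.3 CPM (log2(Fold Change) 4.78 ± 0.14, adjusted p = 7.3e-19), and CDKN1A, the p21 inhibitor of cyclin-dependent kinases, at 586, 584 and 716 CPM against 131, 157 and 202 CPM (log2(Fold Change) 1.99 ± 0.10). PHLDA3, an inhibitor of AKT, fell by 1.45 ± 0.18 on the log2 scale.

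BCL2 family genes changed on both sides of the apoptotic balance, with 4 of 16 raised and 5 lowered against 15.6% and 19.4% of all genes, counts too small to read as a result about the family. MCL1, a short-lived survival protein, stood at 1016, 974 and 930 CPM against 134, 172 and 212 CPM (log2(Fold Change) 2.48 ± 0.11, adjusted p = 1.1e-15). PMAIP1, the BH3-only protein NOXA that binds MCL1, rose by 2.38 ± 0.13. The survival genes BCL2L1 and BCL2 fell by 1.86 ± 0.11 and 2.12 ± 0.16 on the log2 scale, and BMF, another BH3-only gene, by 2.84 ± 0.47.

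Individual cell cycle genes fell. Of 37 mitosis genes, 7 (18.9%) fell, near the 19.4% of all genes, and none rose, and 12 fell with library sizes or when each library's GC slope was a covariate. FOXM1, the transcription factor of the late cell cycle, stood at 123, 141 and 160 CPM against 471, 605 and 688 CPM (log2(Fold Change) -2.05 ± 0.14, adjusted p = 7.0e-12), although it overlaps other genes on the opposite strand. CDC25B, an activating phosphatase of CDK1, fell by 1.89 ± 0.12, and KIF20A, a kinesin of cytokinesis, by 1.87 ± 0.15. DNA replication genes gave 1 raised and 1 lowered of 38. CDKN2C, the p18 inhibitor of CDK4 and CDK6, stood at 2.72, 3.25 and 3.20 CPM against 41.6, 56.4 and 80.2 CPM (log2(Fold Change) -4.26 ± 0.23). The cyclin genes CCNE1 and CCND2 fell by 1.36 ± 0.08 and 1.22 ± 0.08.

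Replication-dependent histone mRNAs normally end in a stem-loop without a poly(A) tail, so a poly(A)-selected library sees only the part that is polyadenylated. Of the 64 such genes listed, 35 passed the filter on low counts, and 24 of these rose and 1 fell. H4C14 stood at 180, 181 and 181 CPM against 24.9, 37.5 and 52.7 CPM (log2(Fold Change) 2.25 ± 0.18), and H4C8 rose by 3.16 ± 0.15. The linker histone gene H1-2 stood at 269, 314 and 336 CPM against 82.7, 119 and 163 CPM (log2(Fold Change) 1.33 ± 0.15). The copies share sequence, and H3C14 and H3C15 had identical values in every well. H4C15, the member that fell, ranged from 0.00 to 23.6 CPM in the deep DMSO wells and from 0.0322 to 1.02 CPM in treated wells, so the groups overlapped.

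Genes of the extracellular matrix made up the list with the lowest median, -0.95, of those described here. Of 31 tested, 15 fell and 1 rose. MMP14, a membrane-bound collagenase, stood at 11.7, 13.8 and 14.2 CPM against 116, 134 and 176 CPM (log2(Fold Change) -3.42 ± 0.15, adjusted p = 1.5e-15). COL4A1, a basement membrane collagen, stood at 47.8, 53.9 and 65.9 CPM against 305, 389 and 512 CPM (log2(Fold Change) -2.82 ± 0.19). COL1A1, the main collagen of bone, stood at 405, 463 and 605 CPM against 1413, 1794 and 2597 CPM (log2(Fold Change) -1.96 ± 0.18), and SPARC and SERPINH1, a collagen chaperone, fell by 2.11 ± 0.11 and 2.30 ± 0.15. All treated wells lay below all controls for these genes. MMP1, an interstitial collagenase, was the member that rose, from a median of 0.337 CPM to at most 0.836 CPM, a call that was lost without treated replicate 1 or 2 (log2(Fold Change) 0.99 in both cases, from 1.12) and whose sign turned with the spike-in scaling. Of the 8 mesenchymal and bone lineage markers tested 4 fell, which were COL1A1, SPARC, RUNX2, the master factor of osteoblasts (log2(Fold Change) -1.91 ± 0.16), and the cadherin CDH11 (-1.76 ± 0.12). The other 4 did not pass, with values of 0.89 for the hyaluronan receptor CD44, 0.20 for ALPL, 0.04 for VIM and -0.09 for CDH2.

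Cell surface and cytoskeleton genes were divided. Ephrins and their receptors gave 6 (50.0%) lowered and 1 (8.33%) raised of 12, against 19.4% and 15.6% of all genes. EPHA2 was the exception, at 862, 926 and 1192 CPM against 130, 170 and 213 CPM (log2(Fold Change) 2.56 ± 0.12), while the receptor gene EPHB4 fell by 2.15 ± 0.18 on the log2 scale. Among actin genes 4 of 18 (22.2%) rose and none fell, counts too small to read as a result about the list. ZYX, a focal adhesion protein, stood at 576, 655 and 859 CPM against 182, 237 and 289 CPM (log2(Fold Change) 1.54 ± 0.13). Among 11 tubulins, TUBB stood at 914, 1047 and 1183 CPM against 3223, 3702 and 4074 CPM (log2(Fold Change) -1.76 ± 0.12, adjusted p = 5.3e-12), TUBG1 also fell (-1.05, and -0.99 without treated replicate 1), and TUBB2A rose.

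Clock genes rose in part. Of 14 tested, 7 rose and none fell, with a median of 0.98. PER2, a repressor of the CLOCK dimer, stood at 114, 121 and 145 CPM against 12.6, 16.01 and 20.3 CPM (log2(Fold Change) 2.98 ± 0.11, adjusted p = 2.2e-17), PER1 rose by 2.80 ± 0.12 and the repressor BHLHE40 by 3.02 ± 0.08. NR1D1, which encodes REV-ERBalpha, rose by 3.73 ± 0.21, and it overlaps THRA on the opposite strand.

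Metabolic lists gave either no calls or counts near the share of all genes. None of 77 nuclear genes of oxidative phosphorylation and none of 13 mitochondrially encoded mRNAs passed both thresholds by edgeR, while 18 and 1 of them differed at the adjusted p alone. Of 27 genes of sterol and fatty acid synthesis 3 (11.1%) rose and 5 (18.5%) fell, against 15.6% and 19.4% of all genes. HMGCS1, an early enzyme of the mevalonate pathway, stood at 1184, 981 and 546 CPM against 53.4, 107 and 216 CPM (log2(Fold Change) 2.96 ± 0.28), whereas SCD and ELOVL6, which desaturate and elongate fatty acids, fell by 1.41 ± 0.12 and 1.67 ± 0.21. Of 27 hypoxia and glycolysis genes 5 (18.5%) rose and 4 (14.8%) fell, also near those shares. ADM, the peptide hormone adrenomedullin, stood at 30.5, 31.8 and 35.4 CPM against 1.54, 2.12 and 3.20 CPM (log2(Fold Change) 3.87 ± 0.14), and LDHA, lactate dehydrogenase, fell by 1.13 ± 0.20.

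Among the 211 zinc finger genes of chromosome 19 that were tested, most of which encode KRAB repressors, 98 (46.5%) rose and 8 fell, with a median log2(Fold Change) of 0.96. The numbers were 81 and 12 with library sizes and 78 and 11 with the GC slope as a covariate, and 2 and 1 with the spike-in scaling. ZNF556 rose by 7.04 ± 0.39 on the log2 scale, ZNF554 by 4.25 ± 0.14, and ZNF835 fell by 5.33 ± 0.48. Reads of these genes may be shared between paralogs.

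For the remaining lists the counts of raised and lowered members were 4 and 0 of 37 proteasome subunits, 1 and 0 of 12 RNA polymerase II subunits, 3 and 2 of 22 lysosome genes, 2 and 1 of 18 NRF2 antioxidant genes, 2 and 0 of 14 YAP and TEAD target genes and 2 and 0 of 5 genes of the metallothionein list. In the list of G1 cyclins, kinases and inhibitors, which holds CDKN1A, CDKN2C and the cyclins above, the counts were 1 and 4 of 14. Among all genes 15.6% rose and 19.4% fell, and none of these counts is read as a result about its list. Small counts such as these moved with single wells: without treated replicate 1 only 1 proteasome subunit rose, 1 lysosome gene fell, 3 hypoxia and glycolysis genes rose and 3 genes of sterol and fatty acid synthesis fell, and without DMSO replicate 10 none of the RNA polymerase II subunits passed.

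The largest rises among protein-coding genes were seen for genes that DMSO cells hardly express. LPAR6, a receptor for lysophosphatidic acid, stood at 41.0, 31.6 and 26.8 CPM in treated wells and at 0.00, 0.0199 and 0.154 CPM in the deep DMSO wells, and no count of it was seen in DMSO replicate 10. Its log2(Fold Change) was 10.52 ± 0.25 (SE), and with so few reads in DMSO that value depends on how low counts are handled. The gene lies at chr13:48389567-48444704 in GRCh38, with RB1 on the opposite strand, so reads of both genes could be confused if strand was not used in the counting. MUC5AC, a gel-forming mucin of airway and stomach, stood at 34.1, 28.4 and 55.1 CPM against 0.0495, 0.119 and 0.426 CPM (log2(Fold Change) 7.95 ± 0.24). RRAD, a small GTPase that binds calcium channels, stood at 52.1, 45.4 and 65.1 CPM against 0.200, 0.351 and 0.875 CPM (log2(Fold Change) 7.17 ± 0.18). WNT9A, a secreted WNT ligand of the joint, stood at 294, 292 and 361 CPM against 2.16, 2.70 and 4.73 CPM (log2(Fold Change) 6.79 ± 0.17, adjusted p = 3.3e-20). Others were the chemokine receptor CCR4 (7.68), the adaptor SH2D4B (7.63), the autophagy GTPase IRGM (7.55), the ion channel TRPV3 (6.67) and the axonemal dynein DNAH3 (6.30), each a log2(Fold Change) with treated wells above every control. FRG2 (7.94) belongs to a multicopy family and its reads cannot be placed with certainty, while IRGM and TRPV3 overlap ZNF300 and SPATA22.

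The rule for named genes kept falls that start from at least 10 CPM in DMSO. JDP2, a bZIP repressor that pairs with JUN, stood at 1.69, 1.42 and 2.57 CPM against 44.1, 57.6 and 83.9 CPM, which is 32.2-fold lower (log2(Fold Change) -5.01 ± 0.28). DPYSL2, a phosphoprotein that binds tubulin, stood at 5.35, 4.92 and 4.81 CPM against 101, 120 and 139 CPM (log2(Fold Change) -4.58 ± 0.12, adjusted p = 6.4e-20). SOX12, a SOXC transcription factor, stood at 3.15, 3.47 and 4.63 CPM against 72.1, 88.5 and 124 CPM (log2(Fold Change) -4.65 ± 0.23). Treated wells lay below all 18 controls in each case. The interferon-induced gene IFIT1 fell by 4.999 ± 0.41 on the log2 scale, to below its deep controls, and had no count in DMSO replicate 10. Further members were the clustered protocadherins PCDHB5 and PCDHB8, whose paralogs are similar in sequence, the glycosyltransferase gene B4GAT1, the synaptic adhesion gene LRFN1, the centrosomal gene LRRC45, the immunoglobulin superfamily gene IGSF3 and the angiogenesis inhibitor VASH1, with log2(Fold Change) between -5.04 and -4.48.

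Among long noncoding RNAs, falls outnumbered rises. Of 2446 tested lncRNA genes 873 (35.7%) fell and 295 (12.1%) rose, with a median log2(Fold Change) of -0.66, against 16.5% in each direction among 14583 protein-coding genes. The share of expected counts in lncRNA genes was 0.739% to 0.790% in treated wells and 0.844% to 1.01% in DMSO wells, with no overlap (exact permutation test over wells, two-sided, p = 0.0015, which is the smallest this design allows, adjusted p = 0.0038 over 5 classes). The class was not uniform, and TM4SF18-AS1 stood at 27.5, 23.1 and 24.2 CPM against 0.00, 0.0247 and 0.165 CPM (log2(Fold Change) 9.28 ± 0.31). SCIRT, LINC01511 and LINC02972 rose by 5.30 ± 0.13, 4.46 ± 0.13 and 4.31 ± 0.20 on the log2 scale. MIR1915HG, a microRNA host gene, fell by 4.50 ± 0.24, GAS6-AS1 by 2.93 ± 0.26, BAIAP2-DT by 2.64 ± 0.15 and OIP5-AS1 by 2.45 ± 0.19. Of 351 protein-coding genes with a single exon, 112 (31.9%) fell and 60 (17.1%) rose, and their share of counts was 1.12% to 1.17% against 1.18% to 1.47% in DMSO, with the same exact p. When shares were taken from TPM instead, the differences were -0.00437 and -0.0158 percentage points and neither passed (exact permutation test, adjusted p = 1.0 for both). The shares of protein-coding genes, pseudogenes and mitochondrially encoded mRNAs did not pass in either unit.

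Calls also varied with the structure of protein-coding genes. In the quintile with the lowest transcript GC content 19.6% of genes rose and 9.12% fell, and in the quintile with the highest 14.7% rose and 23.5% fell. The median log2(Fold Change) went from 0.23 to -0.19 between them, and from -0.06 to 0.003 once each library's GC slope entered the fit. The GC slope, the change of log2 level per 10 percentage points of GC, ranged from -0.14 to 0.50 in DMSO and from -0.13 to 0.27 in treated wells. Genes with the lowest DMSO level were called most often, with 26.2% raised and 20.5% lowered in that quintile against 8.16% and 10.8% in the quintile with the highest level.

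**Figure D4:**
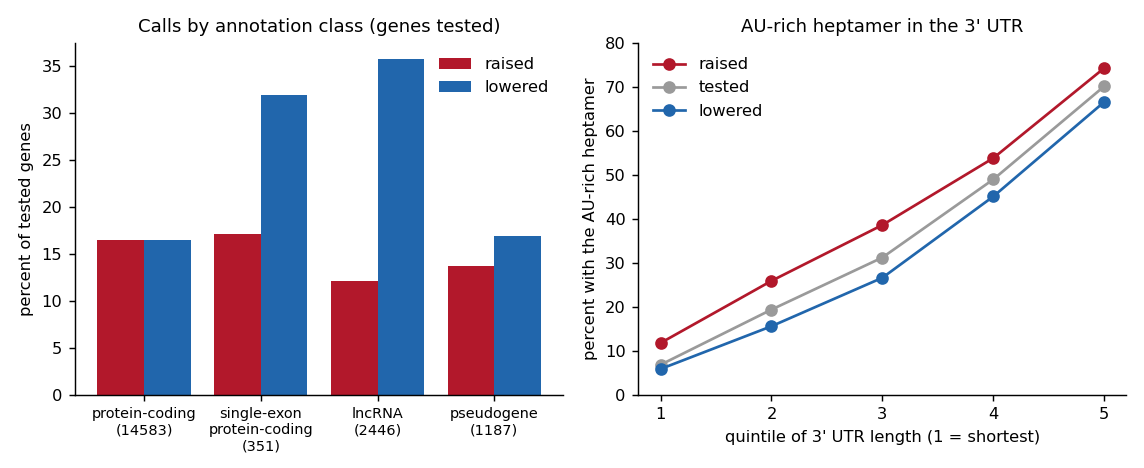
Left, percent of tested genes that rose (red bars) and fell (blue bars) in 4 annotation classes, with the number tested in brackets. Right, percent of raised (red), all tested (grey) and lowered (blue) protein-coding genes whose 3' UTR holds the AU-rich heptamer, by quintile of UTR length. Lowered bars exceed raised bars for lncRNA and single-exon genes, and in each length quintile the raised genes lie above the tested and the lowered genes below them.

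AU-rich elements of the 3' UTR mark many short-lived mRNAs, among them those of early genes and cytokines. The heptamer TATTTAT, written in DNA letters and read on the sense strand, was present in the annotated 3' UTR of 976 of 2393 raised genes (40.8%), 5118 of all 14513 tested (35.3%) and 832 of 2390 lowered genes (34.8%). Raised and tested genes had median UTR lengths of 1297 and 1300 bases, and lowered genes one of 1542 bases. Within quintiles of length the share ran from 11.7%, 6.79% and 5.83% of raised, tested and lowered genes in the shortest UTRs to 74.2%, 70.1% and 66.5% in the longest. The nonamer that contains this heptamer was held by 12.8%, 9.41% and 9.21% of the same genes. Both words hold only A and T, and GC content, by which the calls also varied, was not held fixed here. Whether GC content accounts for the difference was not tested. These shares are descriptive and carry no test.

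Several of the genes raised at 100 nM were lower again at 1000 nM, and some early factors were higher. Both doses are set against the same DMSO wells, so only the direct contrast of the doses was tested, within a fit of all homoharringtonine and DMSO wells. That contrast reuses the 100 nM wells. For genes named for their rise in those wells, such as LPAR6 and MUC5AC, the choice itself favours a lower value at 1000 nM. Of 19864 genes tested, 1329 (6.69%) were higher and 896 (4.51%) lower at 1000 nM than at 100 nM. With a replicate block over the 6 wells alone, a pairing that the labels do not give, 140 were higher and 179 lower. Of the ribosome biogenesis factors 11 of 51 were lower at 1000 nM and none higher, with a median difference of -0.68, and GNL3, NOP16 and NOB1 were lower by -1.54, -1.87 and -1.34 on the log2 scale. MYC, which rose at 100 nM, was lower at 1000 nM by -2.26 ± 0.16 (SE; adjusted p = 2.8e-11). LIF and INHBA were lower by -2.84 and -4.11, and 4 of 9 genes of the EGF list were lower with none higher. LPAR6 and MUC5AC, which had large rises at 100 nM, were lower at 1000 nM by -4.32 and -4.58, and BCL2A1, a survival gene induced by NF-kB, by -4.11. Among immediate early factors 7 of 28 were higher, 1, MYC, was lower and 20 did not pass. EGR2, ATF3 and EGR4 were higher by 1.94, 2.20 and 3.62. Of the replication-dependent histones 6 of 35 were higher and none lower, and of chromosome 19 zinc finger genes 33 of 211 were higher and 3 lower. For the ribosomal protein genes 0 of 79 passed in this contrast by edgeR, with a median difference of -0.45.

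**Figure D5:**
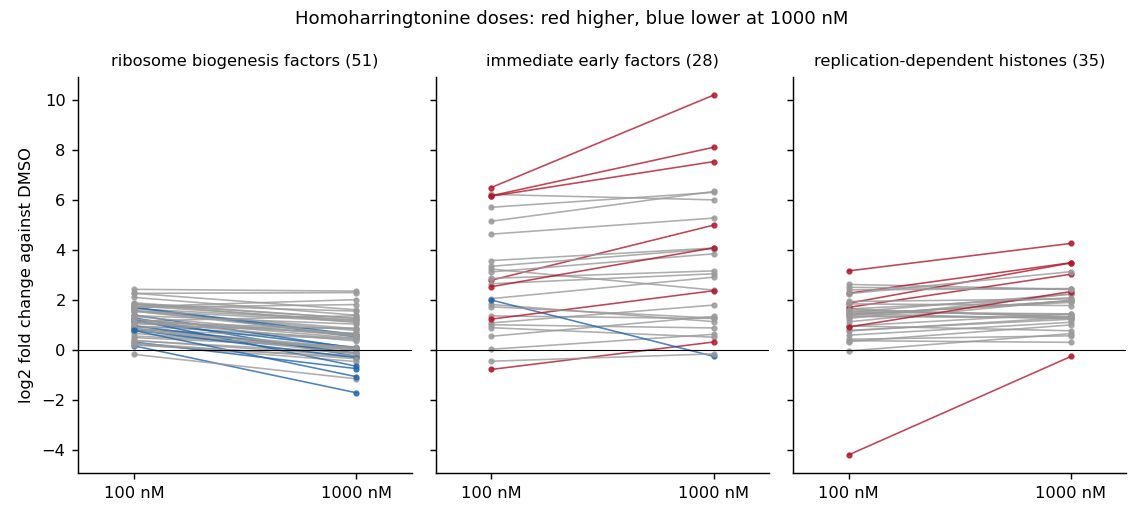
Log2(Fold Change) against the same DMSO wells at 100 nM and 1000 nM for the members of 3 lists, 1 line per gene. Lines are red for genes higher at 1000 nM and blue for genes lower, by the direct contrast of the doses, and grey for the rest. Blue lines fall among ribosome biogenesis factors, and red lines climb among immediate early factors and histone genes.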

How the data were processed

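Polyadenylated RNA was made into TruSeq Stranded libraries. The authors ran RSEM on GRCh38, per the labels, whose processing notes also name HTSeq and DESeq2, and the versions and the annotation release are not given in the sources used here. Each file holds 60371 rows, of which 92 are ERCC spike-ins and 60279 Ensembl genes, and 56104 of the genes were found in GENCODE release 44. Expected counts, as deposited, were rounded and tested. TPM, as deposited, was used for levels across genes and in alternatives, and the effective length of each gene, deposited by the authors in bases, served to infer fragment length. The FPKM values of the deposited files were not used.

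Genes were filtered with filterByExpr (smallest count 10) and fitted by edgeR 4.0.16 in R 4.3.3, with TMM factors, glmQLFit, glmQLFTest and a Benjamini-Hochberg adjustment over all genes. The SE of a log2(Fold Change) is its size divided by the square root of F. Class shares were tested by exact permutation over wells (scipy 1.17.1). DESeq2 1.42.0 and limma 3.58.1 on log2(TPM + 1) were alternatives, as were other scalings and filters, the GC slope as a covariate, a replicate block and leaving out wells. The spike-in scaling was chosen after seeing the data. Scripts were tested on simulated data. PCR reads are not independent molecules, so precision from depth covers counting error only. All wells were distinct libraries: the lowest chi-square per degree of freedom between wells was 3.36 in DMSO and 11.3 in treated wells.

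The members and gene lists were chosen with earlier results of these data known, and lists are described without a test. The rule for named genes took the 12 largest rises and falls among protein-coding genes and the 4 largest among lncRNAs (at least 10 CPM in the higher group, past both thresholds, beyond all deep DMSO wells), up to 3 rises, 3 falls and the member with the highest DMSO TPM in each list, and a short set with EIF4E, MYC, ATF4, ACTB and GAPDH. Some genes the rule takes are not reported here. Members named beyond these, such as EGR1, FOS, JUN and COL1A1, were chosen after their values were seen. Promoters (250 bases before to 50 after the start, GRCh38.p14) came from RefSeq, and as only 80.1% of tested, 79.3% of raised and 77.1% of lowered protein-coding genes had one, motif shares over all raised or all lowered genes are void and not given. 3' UTRs came from GENCODE. Use of strand in counting is not given in the sources used here, so overlapping genes are uncertain.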

Additional observations from a re-analysis of the deposited data

How the results depend on the processing

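The counts of 2939 raised and 3640 lowered genes stayed within 1.5 times under most settings, between 2198 with library sizes alone and 3357 with all doses in the fit for rises, and between 2439 with at least 10 counts in every deep well and 4598 with library sizes for falls. They moved further under 5 settings. Scaling to the spike-ins gave 253 and 291, limma on log2(TPM + 1) gave 1357 and 2297, and the adjusted p without a fold threshold gave 5871 and 6104. Without a filter 4521 genes rose, and with at least 10 counts in every deep well 1939 rose, where more or fewer genes were tested. Leaving out DMSO replicate 10 or a treated well gave 2769 to 2977 raised and 3494 to 3720 lowered genes.

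With a replicate block over DMSO replicates 1 to 3 the counts were 3037 raised and 3442 lowered. The labels do not pair the wells, and same-numbered wells correlated at -0.671, -0.006 and 0.641. For 1000 nM against 100 nM, where same-numbered wells correlated at -0.688, 0.288 and -0.774, the replicate block over the 6 wells alone gave 140 higher and 179 lower, against 1060 and 776 in these wells without it, and leaving out a well gave 1034 to 1387 higher and 777 to 1062 lower.

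With TPM in place of expected counts the lncRNA and single-exon shares differed by -0.00437 and -0.0158 percentage points; the cause was not tested. Of 219 named genes, calls ended for 1 with DESeq2, 10 with library sizes, 22 with limma, 9 with the GC slope, 12 with DMSO replicates 1 to 3 only, 11 with the replicate block, 138 with the spike-in scaling (17 of them with the sign turned) and 1 to 8 without DMSO replicate 10 or a treated well. Only the spike-in scaling reversed named genes that had passed, with log2(Fold Change) of -0.29 for EIF3J, -0.02 for EIF4A3, -0.32 for EIF5, -0.36 for EPCAM, -0.50 for MMP1, -0.21 for NFE2L2, -0.03 for NPC1, -0.09 for ODC1, -0.07 for OSGIN1, -0.19 for PFKFB3, -0.37 for POLR2C, -0.57 for PSMD12, -0.51 for PSMD6, -0.06 for PSMD7, -0.15 for RBM8A, -0.30 for SRSF3 and -0.00 for TUBB2A. Depth limits the low genes most, since DMSO replicate 10 holds few counts and genes near 0 in DMSO have no precise fold.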
